A study of Mus musculus with 12 samples.

Results

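The proteins of the mitochondrial ribosome were followed through gastrocnemius muscle of young and old mice with and without a muscle-specific deletion of Ppargc1a, the gene of the transcriptional coactivator PGC-1alpha. Members were all genes whose symbol begins with Mrpl or Mrps followed by a number, in probe sets that name 1 gene. Each gene was read from its probe set with the highest mean over the 12 arrays. This gave 76 members of 18194 genes tested, 47 with Mrpl symbols (large subunit) and 29 with Mrps symbols (small subunit, apart from Mrps30 and Mrps18a, whose proteins sit in the large subunit).

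The 12 Affymetrix arrays formed 4 groups of 3: wild-type mice of 10 weeks (WT_young), knock-out mice of 10 weeks (KO_young), wild-type mice of 24 months (WT_old) and knock-out mice of 24 months (KO_old). In the knock-out mice cre recombinase was driven by the promoter of myogenin, a factor of differentiating muscle cells, so that other cells of the tissue were not targeted. All groups shared the mixed C57Bl/6N/6J/129 background. RNA came from whole muscle, in which fewer cells of a type and less RNA per cell cannot be told apart. The labels do not say whether the 3 arrays of a group came from separate animals, so the tests measure the spread between arrays, which may be technical.

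Mitochondrial ribosomes translate the small set of messages of the mitochondrial genome, which encode core subunits of the respiratory chain and the ATP synthase. Their RNA comes from the mitochondrial genome, while their proteins are encoded in the nucleus, made in the cytosol and imported, so that a ribosome needs the output of both genomes. Many of the proteins have bacterial counterparts and others occur only in mitochondria. PGC-1alpha is known to coactivate the factors NRF1, GABP and ERR alpha on nuclear genes of mitochondria, and skeletal muscle is a tissue in which it is abundant.

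The targeted gene did not have a lower signal in the arrays labelled knock-out. Ppargc1a measured 10.77, 11.17 and 11.18 (log2) in WT_young, 11.14, 11.48 and 12.10 in KO_young, 12.09, 11.76 and 11.50 in WT_old and 12.06, 11.84 and 12.33 in KO_old. The difference between knock-out and wild-type was 0.53 ± 0.23 (SE) in young muscle (adjusted p = 0.41) and 0.29 ± 0.23 in old muscle (adjusted p = 0.506). All 5 of its probe sets had a positive difference at both ages. The part of the gene that was deleted, and whether any probe set lies in it, is not given in the sources used here, so these signals do not check the labels, and knock-out below means the arrays so labelled. Esrra, which encodes ERR alpha, was lower in knock-out muscle by 0.75 ± 0.14 in young mice (adjusted p = 0.0593) and fell by 0.91 ± 0.14 in old mice (adjusted p = 0.0124). The mean log2 signal of 11 skeletal muscle markers lay between 15.3 and 15.41 on every array. This is near the top of the scale, where the highest value was 15.95. Single markers differed between genotypes by -0.09 to 0.49 in young and by -0.15 to 0.70 in old muscle, with 0 called.

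Promoter windows from RefSeq (GRCm38.p6), reaching from 250 bases before to 50 bases after the start of a gene, were found for 67 of the 76 members. The windows below belong to Mrpl12 and Mrpl47, which had the largest genotype differences in young muscle, and to Mrpl34 and Mrpl46, also lower there. The last belongs to Mrps18b, which was higher in old than in young knock-out muscle. The bases printed are those before the start that lie in no annotated gene. Capitals mark the letters of a searched motif on either strand, which were the ETS site of GABP (CCGGAAG) in Mrpl34 and the SP1 box (GGGCGG) in Mrpl46 and Mrps18b, and the printed bases of Mrpl12 and Mrpl47 held none of the 6 motifs. The whole window of Mrpl12, with the 50 bases after its start that are not printed, held the ERR half-site (AAGGTCA), 1 of 4 member windows that did. That of Mrps18b also held the NRF1 core (GCATGCGC) and the GABP site, and that of Mrpl46 also held TATAAA. The whole windows of Mrpl34 and Mrpl47 held no further motif. The bases of Mrps36 and Mrpl50 were searched alike and are not printed. Those of Mrps36, which was also lower in young knock-out muscle, held the SP1 box. Those of Mrpl50, which was also higher in old than in young knock-out muscle, held no motif.
Mrpl12 (chr11:120484387-120484636, plus strand): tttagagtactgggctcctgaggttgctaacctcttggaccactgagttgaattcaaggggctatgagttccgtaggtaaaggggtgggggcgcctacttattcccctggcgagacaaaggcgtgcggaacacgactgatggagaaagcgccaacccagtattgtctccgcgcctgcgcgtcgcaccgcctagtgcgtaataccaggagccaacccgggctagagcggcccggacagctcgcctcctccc
Mrpl47 (chr3:32736756-32737005, minus strand): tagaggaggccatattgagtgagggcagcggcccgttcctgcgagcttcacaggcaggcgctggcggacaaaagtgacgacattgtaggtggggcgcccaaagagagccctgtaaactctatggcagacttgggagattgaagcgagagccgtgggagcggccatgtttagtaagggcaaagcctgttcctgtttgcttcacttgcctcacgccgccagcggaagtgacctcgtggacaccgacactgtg
Mrpl34 (chr8:71464708-71464925, plus strand): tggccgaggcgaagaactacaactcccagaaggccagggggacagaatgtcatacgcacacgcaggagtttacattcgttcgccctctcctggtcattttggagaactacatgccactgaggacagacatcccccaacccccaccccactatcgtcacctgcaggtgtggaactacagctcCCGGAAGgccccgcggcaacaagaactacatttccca
Mrpl46 (chr7:78783090-78783130, minus strand): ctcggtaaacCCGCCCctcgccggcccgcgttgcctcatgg
Mrps18b (chr17:35916441-35916511, minus strand): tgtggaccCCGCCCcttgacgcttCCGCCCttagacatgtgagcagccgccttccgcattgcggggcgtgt

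The motifs were searched on both strands of whole windows, and a match is a description of the letters, not a binding site. The ETS site of GABP (CCGGAAG) occurred in 25 of 73 member windows, a share of 34.2% beside 8.86% of all 32851 promoter windows and 12.5% of windows of complex I subunits. In the cytosolic ribosome, which is made outside mitochondria, the share was 41.7%. The NRF1 core (GCATGCGC) was found in 8 of 73 member windows beside 2.71% of all windows. The YY1 motif (AAGATGG) was in 17.8% beside 6.34%, and the SP1 box (GGGCGG) in 53.4% beside 35.7%. The ERR half-site (AAGGTCA) was in 5.48% beside 4.72%. TATAAA, the letters of a TATA box, were in 6.85% beside 13.6%. The member windows were richer in G and C, with a median of 58.7% beside 52.7%. Among all windows whose GC content lay within the members' quartile range, 13.9% held the GABP site, 4.28% the NRF1 core, 6.89% the YY1 motif, 49.6% the SP1 box, 3.69% the ERR half-site and 6.43% TATAAA, so the members' share of TATAAA was near that of windows of like GC content. The number of CG pairs (C followed by G) was not matched. Its median was 21 in member windows, 14 in windows of that GC range and 7 in all windows. The letters of the GABP, NRF1 and SP1 motifs hold such a pair. No motif is contained in another, though matches may share bases at their ends.

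Many members shared their upstream region with a neighbour read in the opposite direction. For 23 of 67 members, 34.3%, the start of such a neighbour lay within 500 bases, beside 11.9% of all genes with a window and 15.9% of those in the same GC range. Mrpl46 and Mrps11, both members, started 42 bases apart, and the 41 bases between them are the Mrpl46 sequence printed above. In young muscle Mrpl46 was lower by 0.34 ± 0.10 and Mrps11 by 0.09 ± 0.12 on the log2 scale, and Mrpl34 by 0.36 ± 0.10, with none past the test. Mrpl47 started 308 bases from Ndufb5, a subunit of respiratory complex I, and Mrpl43 started 116 bases from Twnk, the helicase of mitochondrial DNA. In knock-out muscle Ndufb5 measured 0.31 ± 0.10 below wild-type in young mice (adjusted p = 0.278) and 0.43 ± 0.10 below in old mice (adjusted p = 0.0598). Mrps12 started 147 bases from Sars2, the mitochondrial seryl-tRNA synthetase. The members lay across the genome, with 11 on chromosome 11 and 8 on chromosome 17.

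All 76 members had a mean signal above the median of all probe sets, which was 6.22 on the log2 scale. Each probe set has its own response, so signals of different genes show where a gene lies on the scale of the array and not how much RNA it has relative to another. The highest means belonged to Mrpl42 at 13.60, Mrpl51 at 13.38 and Mrps14 at 12.53. The lowest were those of Mrps27 at 8.36, Mrpl1 at 9.04 and Mrpl19 at 9.14. Differences between groups were small in the probe sets used. There, in only 3 of 76 members did any of the 4 comparisons exceed 0.5 in size. For 30 members the 4 group means lay within 0.2 of each other.

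The spread of the 4 group means picked out a few members. It was widest for Mrpl12 (0.83), the protein of the stalk that receives translation factors, and for Mrps36 (0.81), which has also been assigned to the 2-oxoglutarate dehydrogenase complex. Mrpl47 (0.77), Mrpl42 (0.70) and Mrpl15 (0.58) followed. It was narrowest for Mrpl40 (0.05), a protein of the central protuberance, for Mrps12 (0.05), which lies at the decoding centre, and for Mrpl58 (0.10), a peptidyl-tRNA hydrolase built into the ribosome.

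**Figure D1:**
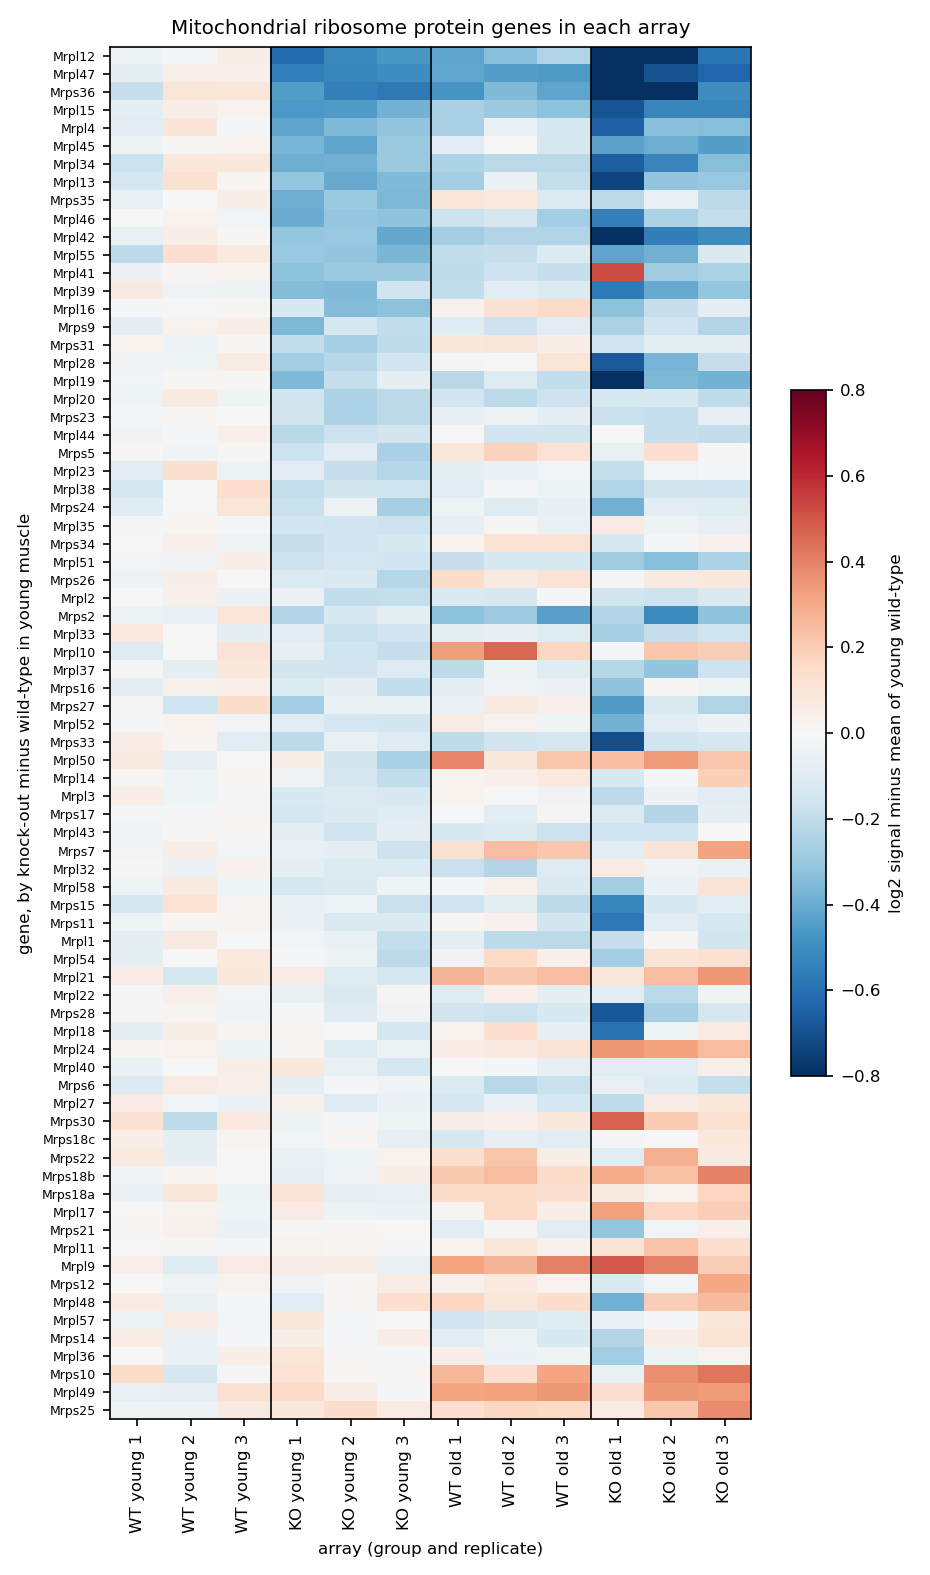
Log2 signal of each of the 76 members in each of the 12 arrays, minus the mean of the 3 young wild-type arrays of that gene. Rows are ordered by the difference between knock-out and wild-type in young muscle, and colours are capped at 0.8 in either direction. Blue fills most of the knock-out columns in the upper rows, and KO_old 1 is the darkest column.

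In young muscle most members had a lower signal in knock-out mice, by small amounts, and none passed the test. Of the 76, 65 were lower and 11 higher, or 85.5% lower beside 52.1% of all genes. Their median difference was -0.12 on the log2 scale, beside -0.01 over all genes, and the differences ran from -0.53 to 0.10. In 21 members the signal was lower by more than 0.2, a share of 27.6% beside 12.8% of all genes, and in 0 it was higher by as much. With limma's moderated test and Benjamini-Hochberg adjustment over all genes, 0 members passed an adjusted p of 0.05, where 0.192% of all genes did. At an unadjusted p of 0.05, 19 members were lower and 0 higher, beside 6.3% of all genes lower and 4.96% higher. In 39 members all 3 knock-out arrays lay below all 3 wild-type arrays, and in 0 above, where 10.1% of all genes lay apart in the lower and 10.7% in the higher direction. Leaving out each young array in turn kept between 62 and 66 members lower, with medians from -0.13 to -0.11. The old arrays enter this test through the shared estimate of the spread, and 7 members passed without KO_old 1 and 1 without KO_old 3. Calls over all genes, 35 in the main fit, ran from 1 to 173 without 1 array and from 1 to 1019 over all alternatives. With array weights 15 members passed. These weights gave WT_young 3 4.73 beside 0.701 and 0.634 for the other 2 arrays of its group, and KO_old 1 the lowest of all arrays, 0.282.

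Mrpl47, the counterpart of a bacterial protein at the exit of the peptide tunnel, came nearest to the threshold. Its signal was 10.54, 10.66 and 10.66 in WT_young and 10.07, 10.09 and 10.12 in KO_young, so that the groups lay well apart. The difference was -0.52 ± 0.09 (SE), or 1.44-fold lower, with an adjusted p of 0.0519 and a range of 0.000717 to 0.263 over the alternative settings. Its 2 dimmer probe sets differed by -0.22 and -0.23, and the mean of its probe sets by -0.33 (adjusted p = 0.263). Mrpl15, another large-subunit protein with a bacterial counterpart, measured 12.22, 12.35 and 12.32 in WT_young and 11.84, 11.85 and 11.92 in KO_young. It was lower by 0.43 ± 0.08 (adjusted p = 0.056, range 0.0016 to 0.267), and its 3 other probe sets of signal above 10 gave -0.46, -0.46 and -0.45. For both genes the knock-out arrays were closer to each other than to any wild-type array.

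Mrpl45 helps to hold the ribosome at the inner membrane, where the new proteins are inserted. It measured 10.64, 10.69 and 10.71 in WT_young and 10.32, 10.26 and 10.39 in KO_young, a difference of -0.36 ± 0.07 (adjusted p = 0.0806). Mrpl12 measured 12.21, 12.24 and 12.30 in WT_young and 11.63, 11.73 and 11.78 in KO_young. Its difference was -0.53 ± 0.11, or 1.45-fold lower (adjusted p = 0.0895). Neither gene had overlapping groups. Mrps35, a small-subunit protein found only in mitochondria, differed by -0.35 ± 0.09 (adjusted p = 0.14), and Mrps36 by -0.52 ± 0.13 (adjusted p = 0.16).

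The 4 members with the smallest p among the higher ones were Mrps25, Mrpl49, Mrps10 and Mrpl36. Their differences were 0.10, 0.06, 0.05 and 0.03, beside standard errors of 0.09, 0.09, 0.12 and 0.09, with adjusted p between 0.701 and 0.918. The sign of each changed under at least 1 alternative setting.

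**Figure D2:**
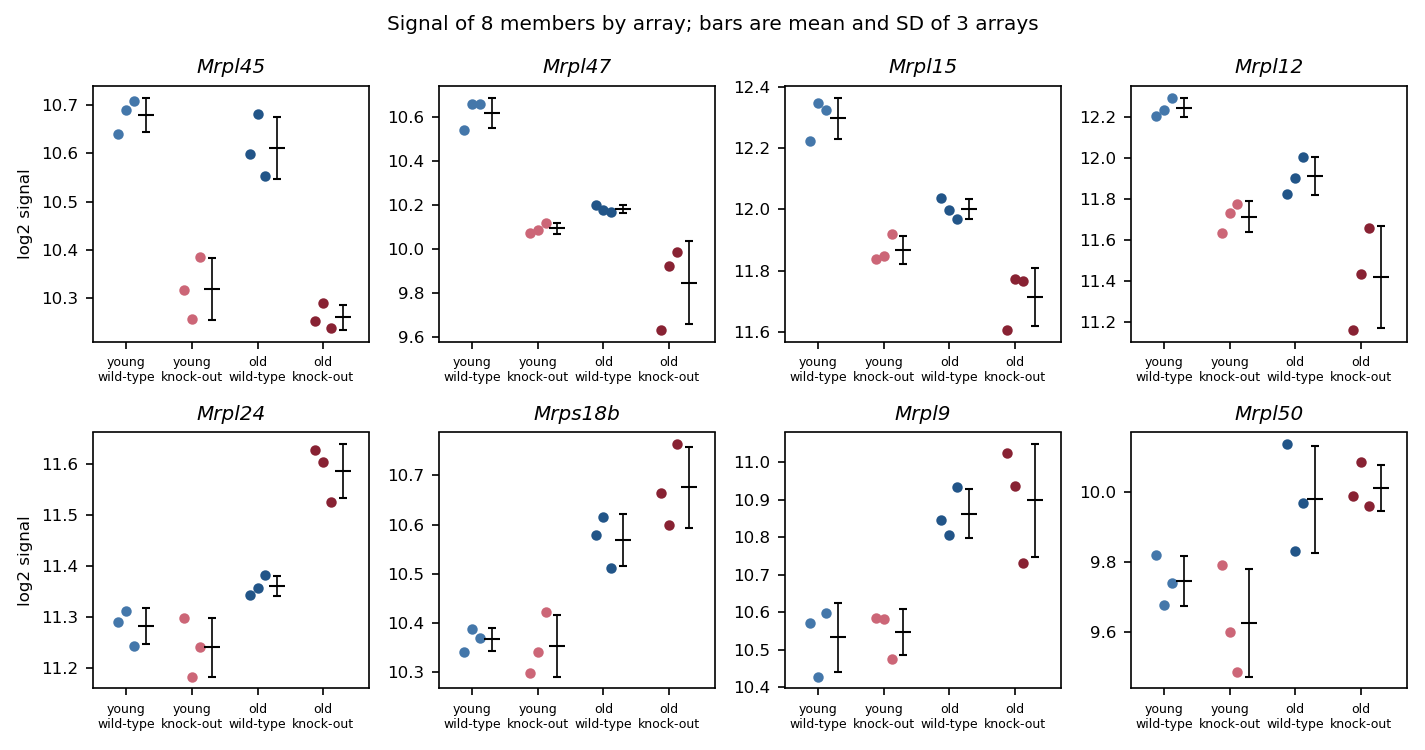
Log2 signal of 8 members in each array, by group, with the mean and SD of the 3 arrays beside the points; each panel has its own vertical axis, which does not start at 0. In Mrpl45, Mrpl47, Mrpl15 and Mrpl12 (top) all knock-out arrays lie below the wild-type arrays of the same age, and in Mrpl24, Mrps18b, Mrpl9 and Mrpl50 (bottom) the old knock-out arrays lie above the young knock-out arrays.

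Most members of every class had lower signals in the knock-out arrays of young mice. Of 29 measured large-subunit proteins with bacterial counterparts 26 were lower, with a median of -0.14, and of 20 large-subunit proteins found only in mitochondria 17 were lower, with a median of -0.12. In the small subunit 12 of 16 with bacterial counterparts were lower (median -0.09), and 10 of 11 found only in mitochondria (median -0.15). At the peptide tunnel exit 8 of 8 were lower, with a median of -0.17. In the central protuberance 7 of 8 were lower (median -0.09), and in the stalk 3 of 4 (median -0.11), where Mrpl12 stood out from the other stalk members. No class had a member past the adjusted threshold, and the ranges of all classes overlapped.

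Markers of other cells also differed between the young groups. The mean log2 signal of 6 lymphocyte markers was 6.91 in WT_young 1 and 5.65 and 5.60 in the other 2 arrays of that group, against 5.46 to 5.52 in KO_young, and 6 of 6 were lower in knock-out muscle. All 8 macrophage markers were higher, with array means of 7.60 to 8.03 in WT_young and 7.71 to 8.43 in KO_young. All 5 adipocyte markers were lower, with 9.23 to 9.82 in WT_young and 8.85 to 9.69 in KO_young. None of these markers passed the test in young muscle. Without WT_young 1, 62 members were lower and the median was -0.13. The part of these cells in the members' differences was not tested.

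In old muscle knock-out mice again had lower signals in more members than not, but 1 array carried much of it. Of the 76 members 55 were lower and 21 higher, or 72.4% lower beside 53.9% of all genes, and the median difference was -0.08 beside -0.02 over all genes. Differences ran from -0.49 to 0.23. The adjusted test called 1 member, Mrpl45, where it called 1.32% of all genes. In 20 members the old knock-out arrays lay below the old wild-type arrays and in 7 above, beside 13.2% and 10.6% of all genes. Without KO_old 1, 43 members were lower and 33 higher, which was 51.8% lower among all genes, the median was -0.03, and 0 members were called. Without any other old array, 53 to 59 members were lower. The count of calls was 5 without KO_old 3 and 0 without any other array. Calls over all genes, 241 in the main fit, ran from 28 to 644 when 1 array was left out.

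KO_old 1 had the lowest signal of its group in 54 of 76 members, where this array was the lowest for 39.4% of all genes. The mean over the members, taken from the mean of the young wild-type arrays, was -0.24 in KO_old 1, -0.10 in KO_old 2 and -0.05 in KO_old 3. It was between -0.15 and -0.13 in the KO_young arrays and between -0.04 and -0.02 in the WT_old arrays. KO_old 1 was the highest of its group in 11 members, among them Mrpl41, which measured 11.64 there and 10.83 and 10.86 in the other 2 arrays. Complex I subunits were also lowest in KO_old 1, at -0.64 beside -0.38 and -0.31.

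**Figure D3:**
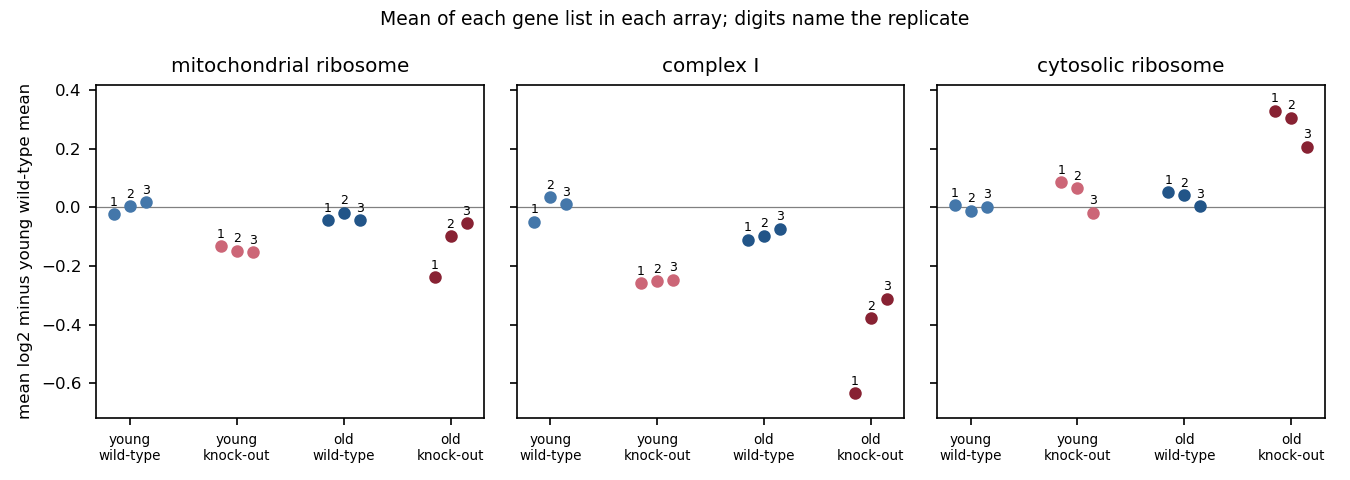
Mean log2 signal of the 76 members, of 33 complex I subunits and of 46 cytosolic ribosome proteins in each array, minus the mean of the young wild-type arrays; digits are replicate names and carry no order. KO_old 1 lies lowest in the first 2 panels, and the old knock-out arrays lie highest in the panel of the cytosolic ribosome.

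The same array stood apart in cell type markers. The mean log2 signal of 5 adipocyte markers was 11.16 in KO_old 1, 10.6 in KO_old 2 and 8.48 in KO_old 3, against 8.34 to 9.18 in WT_old, and all 5 were higher in knock-out muscle with none past the test. Macrophage markers were at 8.67 to 8.80 in KO_old and 7.50 to 8.37 in WT_old, with 8 of 8 higher and 1 called. The 5 fibroblast markers were at 9.32 in KO_old 1, 10.59 and 10.90 in the other 2, and 10.20 to 10.66 in WT_old. KO_old 2 shared the high adipocyte signal, and its member mean was -0.10. The part of these cells in the members' values was not tested.

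Mrpl45 fell in old knock-out muscle, with 10.60, 10.68 and 10.55 in WT_old and 10.25, 10.29 and 10.24 in KO_old. The groups did not overlap, and KO_old 1 was within the range of its group. The difference was -0.35 ± 0.07, or 1.28-fold lower, with an adjusted p of 0.0446. The difference without KO_old 1 was -0.35, and without each array in turn it stayed between -0.38 and -0.32. The adjusted p passed the threshold in 5 of 22 alternative settings and missed it without any 1 of the 12 arrays, with a range of 0.0231 to 0.184. With KO_old 1 left out it was 0.0723, and with WT_old 2 left out 0.138. The size of this difference in young muscle was nearly the same, at -0.36.

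The next members by p were carried in part by KO_old 1. Mrpl12 measured 11.83, 11.90 and 12.01 in WT_old and 11.16, 11.44 and 11.66 in KO_old, a difference of -0.49 ± 0.11 (adjusted p = 0.0584). Mrpl28 measured 10.84, 10.84 and 10.95 in WT_old and 10.18, 10.48 and 10.67 in KO_old, a difference of -0.44 ± 0.11 (adjusted p = 0.0772). Mrpl42, found only in mitochondria, measured 13.64, 13.69 and 13.68 in WT_old and 12.89, 13.37 and 13.42 in KO_old, a difference of -0.45 ± 0.12 (adjusted p = 0.0867). In all 3 genes the groups lay apart and KO_old 1 was the lowest array. Leaving out 1 array at a time gave ranges of -0.61 to -0.37 for Mrpl12, -0.55 to -0.30 for Mrpl28 and -0.54 to -0.28 for Mrpl42. The mean of the 2 probe sets of Mrpl42 gave -0.26 (adjusted p = 0.161). Mrpl15 differed by -0.29 ± 0.08 (adjusted p = 0.091) and Mrpl47 by -0.34 ± 0.09 (adjusted p = 0.0957).

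On the higher side of old muscle stood Mrpl24, a protein of the tunnel exit region, with 11.34, 11.36 and 11.38 in WT_old and 11.63, 11.60 and 11.53 in KO_old. Its difference was 0.23 ± 0.07 (adjusted p = 0.129). Mrpl32 differed by 0.17 ± 0.07 (adjusted p = 0.249), Mrpl17 by 0.16 ± 0.08 (adjusted p = 0.307) and Mrps30 by 0.21 ± 0.11 (adjusted p = 0.31). In all 4 genes the old knock-out arrays lay above the old wild-type arrays. The mean of the probe sets of Mrpl17 gave 0.02 (adjusted p = 0.91), and the difference of Mrps30 was 0.105 without KO_old 1.

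The genotype differences at the 2 ages rest on separate arrays. Of the 76 members, 51 were lower in knock-out muscle at both ages, 7 higher at both, 14 lower in young muscle alone and 4 lower in old muscle alone. In 19 members the groups lay apart in the lower direction at both ages. The share of all genes that did so at both ages was not counted. At single ages it was 10.1% in young and 13.2% in old muscle. Across the 76 members the differences at the 2 ages had a Pearson correlation of 0.69 and a Spearman correlation of 0.66. Over all 18194 genes the values were 0.39 and 0.43, and over 33 complex I subunits 0.85 and 0.72. These are descriptions across genes, which share arrays and are not independent replicates.

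**Figure D4:**
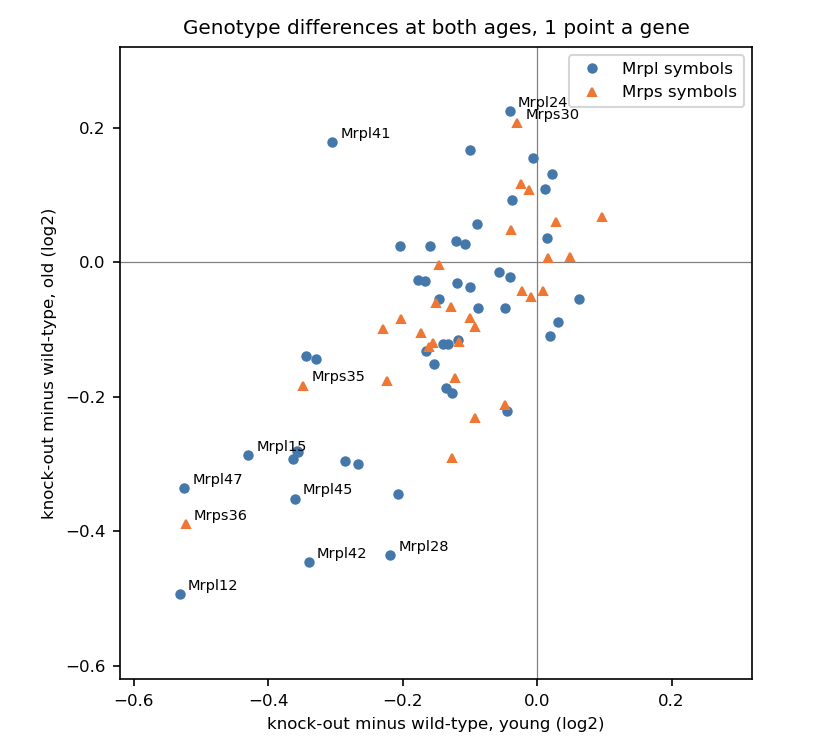
Difference between knock-out and wild-type in young muscle (horizontal) and in old muscle (vertical), in log2 units, with 1 point for each of the 76 members and symbols by subunit name. Most points lie in the lower left, Mrpl12, Mrpl47 and Mrps36 farthest out, and Mrpl41 and Mrpl24 lie above the line of 0 in old muscle.

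The change of the genotype difference with age was tested by itself, and 0 members passed, as did 0% of all genes. At an unadjusted p of 0.05, 3 members were higher and 0 lower, beside 5.45% of all genes in either direction. These were Mrpl24 (0.27), Mrpl32 (0.27) and Mrpl20 (0.23), each with an adjusted p of 0.871, the smallest among the members. Mrpl32 measured 11.47, 11.41 and 11.50 in WT_young, 11.38, 11.35 and 11.35 in KO_young, 11.28, 11.23 and 11.36 in WT_old and 11.53, 11.43 and 11.41 in KO_old. Knock-out arrays thus lay below wild-type in young muscle and above it in old muscle. Mrpl20 measured 10.58, 10.69 and 10.58 in WT_young, 10.46, 10.37 and 10.41 in KO_young, 10.46, 10.40 and 10.45 in WT_old and 10.49, 10.49 and 10.41 in KO_old, so the young wild-type arrays stood above all others. For Mrpl41 the estimate was 0.48, and KO_old 1 alone was high there. It measured 11.07, 11.13 and 11.14 in WT_young, 10.79, 10.82 and 10.82 in KO_young and 10.91, 10.95 and 10.93 in WT_old, and leaving out 1 array at a time gave estimates from 0.22 to 0.62. On the other side the members with the smallest p were Mrpl28 (-0.22), Mrps27 (-0.17), Mrps28 (-0.16), Mrpl36 (-0.12), Mrpl49 (-0.12) and Mrpl18 (-0.18), with adjusted p between 0.878 and 0.919. Without KO_old 1 these estimates were -0.09 for Mrpl28, -0.07 for Mrps27, -0.01 for Mrps28, -0.03 for Mrpl36, -0.04 for Mrpl49 and 0.03 for Mrpl18. The median over the members was 0.04, and without KO_old 1 it was 0.11.

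With age the members went in both directions. The age comparison in wild-type mice shares the young wild-type arrays with the young genotype comparison and the old wild-type arrays with the old one. In wild-type muscle 46 members were lower and 30 higher at 24 months, or 60.5% lower beside 49.5% of all genes, with a median of -0.05 beside 0.00. The adjusted test called 1 member, where it called 3.62% of all genes. In 21 members the old arrays lay below the young ones and in 18 above, beside 13.5% and 12.8% of all genes. Without KO_old 1 the test called 7 members and without KO_old 2 it called 2. Without WT_young 2, WT_young 3 or any 1 of the WT_old arrays it called 0. Calls over all genes, 659 in the main fit, ran from 208 to 1093 when 1 array was left out.

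Mrpl47 was the member that fell with age in wild-type muscle, from 10.54, 10.66 and 10.66 to 10.20, 10.18 and 10.17. The groups lay apart by more than their spread, and the difference was -0.44 ± 0.09, or 1.35-fold lower (adjusted p = 0.0266, range 0.000906 to 0.228). The adjusted p was above 0.05 when WT_young 2, WT_young 3, WT_old 1, WT_old 2 or WT_old 3 was left out, at 0.083, 0.114, 0.0686, 0.0841 and 0.0894, with differences from -0.45 to -0.42. The mean of its 3 probe sets gave -0.27 (adjusted p = 0.228). Mrps2, a small-subunit protein with a bacterial counterpart, measured 9.80, 9.79 and 9.94 in WT_young and 9.52, 9.56 and 9.41 in WT_old, a difference of -0.35 ± 0.09 (adjusted p = 0.0626). Its other probe set, at a mean signal of 7.97, was higher in old wild-type muscle by 0.17, and the mean of both gave -0.09 (adjusted p = 0.566). Mrpl15 went from 12.22, 12.35 and 12.32 to 12.04, 11.998 and 11.97, a difference of -0.30 ± 0.08 (adjusted p = 0.0633). Its 3 other probe sets of signal above 10 gave -0.08, -0.29 and -0.24, and the mean of all its probe sets, 4 of them dim, gave -0.02 (adjusted p = 0.934). Further lower members were Mrps36 (-0.42, adjusted p = 0.124), Mrpl12 (-0.33, adjusted p = 0.144) and Mrpl20 (-0.18, adjusted p = 0.232).

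Other members were higher in old wild-type muscle. Mrpl49, found only in mitochondria, measured 9.23, 9.22 and 9.41 in WT_young and 9.60, 9.60 and 9.63 in WT_old, a difference of 0.33 ± 0.09 (adjusted p = 0.0731). Mrpl9 differed by 0.33 ± 0.09 (adjusted p = 0.0793), and by 0.63 in the mean of its probe sets (adjusted p = 0.00238). Mrpl10, at the base of the stalk, differed by 0.32 ± 0.10 (adjusted p = 0.109) and Mrps18b by 0.20 ± 0.08 (adjusted p = 0.198). The old arrays of these 4 genes lay above the young ones.

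In knock-out muscle 4 members rose with age and 0 fell in the probe sets used, where the adjusted test called 10.3% of all genes. This comparison shares its arrays with both genotype comparisons. Of the 76 members 35 were lower and 41 higher, or 46.1% lower beside 51% of all genes, with a median of 0.01 beside 0.00. In 8 members the old arrays lay below the young ones and in 16 above, beside 14.9% and 13.8% of all genes. Without KO_old 1, 24 were lower and 52 higher, with a median of 0.05 and 3 members called. Without KO_old 3 the direction turned, with 43 lower and 33 higher and a median of -0.04. The old arrays then lay below the young ones in 18 members and above in 17, beside 21% and 18.3% of all genes. Without KO_old 2 there were 38 lower and 38 higher. The count of calls was 7 without KO_old 3, 2 without KO_young 1, KO_young 3 or KO_old 2, 3 without WT_young 3 and 0 without KO_young 2. Calls over all genes, 1868 in the main fit, ran from 833 to 1998 when 1 array was left out.

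Mrpl24 rose from 11.30, 11.18 and 11.24 in KO_young to 11.63, 11.60 and 11.53 in KO_old, by 0.35 ± 0.07 or 1.27-fold (adjusted p = 0.0115). Mrps18b, the small-subunit member of the 3 Mrps18 paralogs that is found only in mitochondria, rose from 10.30, 10.34 and 10.42 to 10.66, 10.60 and 10.76, by 0.32 ± 0.08 (adjusted p = 0.0216). Mrpl9, with a bacterial counterpart, rose from 10.58, 10.58 and 10.48 to 11.02, 10.94 and 10.73, by 0.35 ± 0.09 (adjusted p = 0.0335). Mrpl50, a large-subunit protein found only in mitochondria, rose from 9.79, 9.60 and 9.49 to 9.99, 10.08 and 9.96, by 0.38 ± 0.10 (adjusted p = 0.0345). In all 4 genes every old array lay above every young array, and in old wild-type muscle the same genes were 0.08, 0.20, 0.33 and 0.23 above young wild-type, with none past the test.

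These 4 calls depended on single arrays. Without KO_young 2 none of the 4 passed, with adjusted p of 0.0529 for Mrpl24, 0.0726 for Mrps18b, 0.0796 for Mrpl9 and 0.106 for Mrpl50. Mrps18b also missed without KO_young 1 (0.0698) or KO_old 3 (0.0575). Mrpl9 missed without KO_young 1 (0.0646), KO_young 3 (0.121), KO_old 1 (0.0935) or KO_old 2 (0.0791). Mrpl50 missed without WT_young 3 (0.0531), KO_young 3 (0.137), KO_old 1 (0.0638) or KO_old 2 (0.0887). The ranges over all alternatives were 0.00543 to 0.0757, 0.0112 to 0.1, 0.000268 to 0.121 and 0.0226 to 0.458 for the genes in the same order.

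Further probe sets were available for 2 of these genes. The other probe sets of Mrpl9 were higher in old knock-out muscle by 0.59 and 1.08 and in old wild-type muscle by 0.54 and 1.03. The other probe set of Mrpl50, at a mean signal of 9.497, was lower by 0.14 in old knock-out muscle, so the rise of Mrpl50 was seen by 1 of its 2 probe sets. The mean of its probe sets gave 0.12 (adjusted p = 0.458).

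In the probe sets used, members below their young level in knock-out muscle did not pass the test. They were led by Mrpl42 (-0.36, adjusted p = 0.0822), Mrps28 (-0.31, adjusted p = 0.114), Mrpl47 (-0.25, adjusted p = 0.12), Mrpl19 (-0.31, adjusted p = 0.124), Mrpl12 (-0.30, adjusted p = 0.124) and Mrps2 (-0.21, adjusted p = 0.184). KO_old 1 was the lowest old knock-out array in all of these except Mrps2. Without KO_old 1 the differences were -0.19 for Mrpl42, -0.15 for Mrps28, -0.14 for Mrpl47, -0.16 for Mrpl19 and -0.17 for Mrpl12. That of Mrps2 was -0.13 without KO_old 2 and -0.03 in the mean of its probe sets. Another probe set of Mrpl1, at a mean signal of 8.69, measured 8.94, 8.93 and 8.93 in KO_young and 7.77, 8.38 and 8.48 in KO_old. Its difference was -0.72 ± 0.16, with an adjusted p of 0.0162 in the limma fit over all probe sets. The probe set used for Mrpl1 gave -0.02, and a dim one gave 0.07. The Mrps18 paralogs occupy different places on the ribosome, and Mrps18a and Mrps18c differed by no more than 0.14 in size in any of the 4 comparisons.

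Control signals on the arrays moved with age as well. The 18S ribosomal RNA control was at 13.2 to 14.2 in the young arrays and at 11.7 to 12.8 in the old ones. The signal of the Actb 5′ control probe set minus that of the 3′ one was -0.33 to -0.16 in young arrays and -0.14 to 0.05 in old arrays. The 5 fibroblast markers were lower with age, 5 of 5 in each genotype, with 1 called in wild-type and 3 called in knock-out muscle. Of 5 endothelial markers, 4 lay below their young level in wild-type mice and all 5 did so in knock-out mice, with Cdh5 called in each (-0.76, adjusted p = 0.00751, and -0.71, adjusted p = 0.00561). Alas2, 1 of 2 erythroid markers, rose in each genotype, by 1.08 (adjusted p = 0.0397) and 1.37 (adjusted p = 0.00683). All 8 macrophage markers were higher with age in knock-out muscle, where Cd68 rose by 2.87 (adjusted p = 0.00164), and 4 of 8 in wild-type muscle. The 5 adipocyte markers were all lower with age in wild-type muscle (median -0.94) and all higher in knock-out muscle (median 0.88), with 0 called. Of 6 lymphocyte markers 5 were lower in wild-type mice and 6 higher in knock-out mice, and of 3 Schwann cell markers 3 were lower and 2 higher, with 0 called. The part of these signals in the age differences of the members was not tested.

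The other proteins and factors of mitochondrial translation gave a context for the members. Of the 4 measured proteins of the mitochondrial ribosome whose symbols follow other rules, 4 of 4 were lower in knock-out muscle at both ages, with 0 called and medians of -0.12 and -0.16. Dap3, a GTP-binding protein of the small subunit, differed by -0.28 ± 0.09 in young muscle (adjusted p = 0.276) and Ptcd3 by -0.28 ± 0.11 in old muscle (adjusted p = 0.197). A list of translation factors also held genes of other proteins, such as Oxa1l and Letm1, which bind the ribosome at the inner membrane. Of its 14 measured genes 13 were lower in young knock-out muscle (median -0.22) and 10 in old (median -0.20), with 0 and 1 called. The called gene was Tufm, the elongation factor that brings aminoacyl-tRNA to the ribosome, which fell by 0.50 ± 0.08 in old knock-out muscle (adjusted p = 0.0173). Its values were 10.60, 10.66 and 10.64 in WT_old and 10.02, 10.13 and 10.26 in KO_old, with no overlap. Gfm1, the translocase factor of elongation, differed by -0.48 ± 0.11 (adjusted p = 0.131) and -0.46 ± 0.11 (adjusted p = 0.0723). With age in wild-type muscle Mss51, which is not established as a translation factor in mammals, rose by 1.40 ± 0.32 (adjusted p = 0.0318), and the initiation factor gene Mtif2 fell by 1.07 ± 0.22 (adjusted p = 0.022).

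Genes of ribosome assembly had medians near 0 between genotypes. Of 22 measured, 15 were lower in young knock-out muscle and 9 in old, with medians of -0.02 and 0.02 and 0 called at either age. With age in knock-out muscle Ddx28, a helicase of large-subunit assembly, rose by 0.40 ± 0.09 (adjusted p = 0.0199), and Eral1, which binds the small-subunit RNA, fell by 0.34 ± 0.09 (adjusted p = 0.0268). Of 21 aminoacyl-tRNA synthetases 15 were lower in knock-out muscle at each age, with medians of -0.03 and -0.11 and 0 called. Kars, whose enzyme serves cytosol and mitochondria, rose with age by 0.45 ± 0.08 in wild-type (adjusted p = 0.00989) and by 0.62 ± 0.08 in knock-out muscle (adjusted p = 0.000934). Fars2 rose by 0.28 ± 0.07 with age in knock-out muscle (adjusted p = 0.0245). Of 23 genes of mitochondrial DNA expression and RNA handling 15 were lower in young knock-out muscle and 14 in old, and Fastkd1 fell in old knock-out muscle by 0.62 ± 0.10 (adjusted p = 0.0139). In that list Hsd17b10 and Mterf1a rose with age in knock-out muscle, by 0.71 ± 0.11 (adjusted p = 0.00316) and 0.51 ± 0.08 (adjusted p = 0.00304).

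Of the messages that the ribosome translates, 1 had a probe set naming it, ND5. It differed by -0.06 ± 0.07 in young knock-out muscle (adjusted p = 0.762) and by -0.21 ± 0.07 in old knock-out muscle (adjusted p = 0.152), at signals of 15.19 to 15.48, near the top of the scale of the arrays. Among the regulators Gabpa differed by -0.11 ± 0.08 and 0.02 ± 0.08 between genotypes and Nrf1 by 0.14 ± 0.14 and 0.31 ± 0.14, with none past the test. Yy1 differed by 0.22 ± 0.12 (adjusted p = 0.544) and 0.52 ± 0.12 (adjusted p = 0.067). Myc rose with age in knock-out muscle by 0.91 ± 0.24 (adjusted p = 0.0324), with 9.01 in KO_old 1 beside 7.76 and 7.98.

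The medians of the members lay between those of complex I and of the cytosolic ribosome in all 4 comparisons. In young knock-out muscle 32 of 33 complex I subunits were lower, with a median of -0.24 and 0 called. In old knock-out muscle 32 of 33 were lower, with a median of -0.35 and 7 called, among them Ndufa8 (-0.75 ± 0.12, adjusted p = 0.0124). Without KO_old 1 the median of complex I in old muscle was -0.25 while that of the members was -0.03. Of 46 cytosolic ribosome proteins 37 were higher in young knock-out muscle, with a median of 0.05, and 43 in old, with a median of 0.24 and 1 called. With age in knock-out muscle 43 of 46 cytosolic ribosome proteins were higher, 15 of them called, with a median of 0.25 over all 46. Of 33 complex I subunits 30 were lower, 3 of them called, with a median of -0.21 over all 33. The members' median was 0.01, and this test called 10.3% of all genes. These medians describe the lists, and no test of the difference between lists was made.

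**Figure D5:**
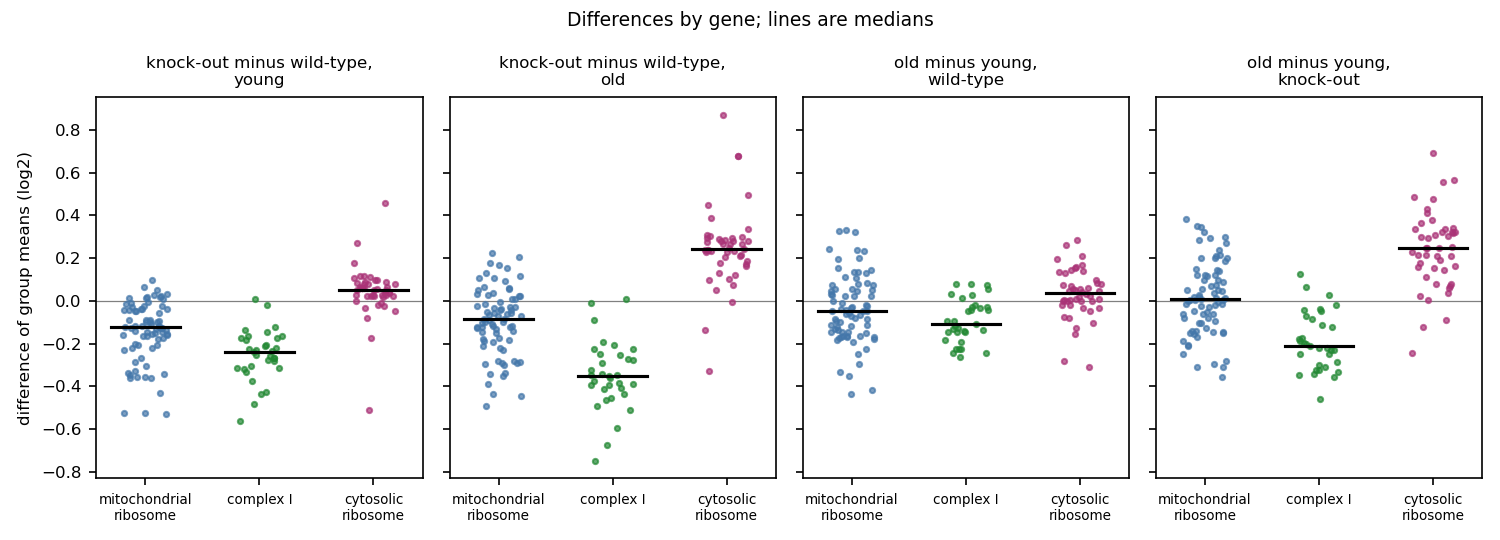
Difference of group means in log2 units for the 76 members, 33 complex I subunits and 46 cytosolic ribosome proteins in the 4 comparisons, with 1 point a gene and a line at each median. The members' medians are -0.12, -0.08, -0.05 and 0.01 from left to right, between those of complex I and the cytosolic ribosome in each panel.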

How the data were processed

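The authors deposited log2 signals. According to the submitters' processing notes, these are RMA values from affy, with the version not given in the sources used here. Per the labels' protocols, Trizol-extracted total RNA (6 ug) was made into biotinylated cRNA. RMA corrects background, normalizes by quantiles and summarises probes, so differences are relative to the array as a whole and are compressed near background. Array medians lay between 6.19 and 6.25, and arrays of a group correlated at 0.989 to 0.996. With 3 arrays a group, the number of arrays limits the precision.

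Of 45101 probe sets 34958 named 1 gene, 932 several and 9211 none. A gene was represented by its probe set with the highest mean. Limma 3.58.1 in R 4.3.3 fitted the 4 group means to all 12 arrays over 18194 genes, with eBayes and Benjamini-Hochberg adjustment, and an adjusted p of 0.05 as the threshold. The fit was tested on simulated data with independent noise. Recovery was required there only for shifts far larger than the members' differences, so the power for differences of their size is not given. Groups lie apart where no values overlap. Replicate numbers follow accession order and pair nothing, and the labels name no batch.

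Alternatives were other choices of probe set, a filter on dim genes, other normalizations and variance settings, array weights, a threshold of 0.10, and a fit without each array. Counts of lower and non-overlapping members without each array, and KO_old 1 left out together with WT_young 1, were part of this. Members and gene lists were chosen with earlier results of these data known. Named were the targeted gene, members past the threshold, the 6 lower and 4 higher with the smallest p in each comparison, those with extreme levels or spans, and the Mrps18 paralogs. Mrps11, Mrpl46, Mrpl34 and Mrpl43 were named after their values were seen. Promoters came from RefSeq (GRCm38.p6).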

Additional observations from a re-analysis of the deposited data

How the results depend on the processing

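Every alternative kept the direction of the members' medians in the young and old genotype comparisons and in the age comparison of wild-type mice, and calls moved more. The median of the knock-out age comparison lay between -0.0386 (without KO_old 3) and 0.0538 (without KO_old 1) when 1 array was left out. The young genotype comparison called 3 members among brighter genes and after quantile normalization, 4 with trended variances and at an adjusted p of 0.10, 15 with array weights and 5 without KO_old 1 and WT_young 1 together. The old genotype comparison called 0 with every probe set, with centred arrays, with array weights, with the compared groups alone and without both arrays, 2 among brighter genes and after quantile normalization, 4 with trended variances and 6 at 0.10. The wild-type age comparison called 2 with probe sets averaged, 4 with every probe set, 5 among brighter genes and at 0.10, 3 with trended variances and without both arrays, and 10 with array weights. The knock-out age comparison called 10 with every probe set, 0 with the compared groups alone and 7 at 0.10. Leaving out 1 array at a time gave 0 to 7 calls in young, 0 to 5 in old, 0 to 7 in wild-type age and 0 to 7 in knock-out age. Calls over all genes moved as well. Across the alternatives they ran from 1 to 1019 in young and from 0 to 800 in old. In the age comparisons they ran from 208 to 2451 in wild-type and from 617 to 2946 in knock-out mice. The old genotype median was -0.0309 without both arrays and between -0.124 and -0.0309 without 1 array. The median change of the genotype difference with age was 0.0976 with array weights, 0.107 without both arrays and between -0.00226 and 0.111 without 1 array. Signs turned for Mrps25 in young muscle (-0.00514 with probe sets averaged, -0.196 in another probe set), Mrpl15 in wild-type age (0.395 in a dim probe set), Mrpl36 in young muscle (-0.0259 after quantile normalization, -0.00125 with array weights), Mrpl49 with array weights (-0.0182 in young muscle, 0.00831 for the change with age), Mrps10 in young muscle (-0.0139 to 0.122 without 1 array, the lowest without WT_young 2) and Mrpl18 for the change with age (-0.303 to 0.0272 without 1 array, the highest without KO_old 1, 0.0617 without both arrays). The cause of these moves was not tested, apart from the lenient threshold and the smaller sets of genes or arrays, which act by construction. No paired analysis was possible because the labels give no replicate numbers. Signals of all members lay above the median of the probe sets, and no comparison of background with the number of arrays as limits was made.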

Other observations

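Some mitochondrial ribosome genes shared their probe sets with a second gene and were not members. The probe sets naming Gm6238 and Mrpl30 had mean signals of 13.1 and 5.32, and the brighter one differed between genotypes by -0.12 ± 0.10 in young muscle and -0.14 ± 0.10 in old muscle. The probe set naming Ccdc142 and Mrpl53 differed by 0.03 ± 0.08 and 0.06 ± 0.08. A probe set naming Nme3 and Mrps34 differed by 0.43 ± 0.17 in young muscle, where the probe set of Mrps34 alone gave -0.15 ± 0.08, so the 2 had opposite signs.

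Among the 42 members with several probe sets, all probe sets of a gene had the same sign in 19 genes for the young genotype difference, 21 for the old one, 14 for age in wild-type and 17 for age in knock-out muscle. In 0 genes did probe sets differ in opposite directions by more than 0.3 each.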
